A study of Mus musculus with 24 samples.

Results

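The genes described here are the 46 mouse genes that encode Wnt ligands, their frizzled and LRP receptors, and the secreted proteins that modulate them, out of 56748 genes in the table. They were chosen by name alone among protein-coding genes. They comprise 19 Wnt genes, 10 frizzled genes (Fzd), Lrp5 and Lrp6, Ndp, 6 genes of the SFRP, FRZB and WIF1 antagonists, 4 Dickkopf genes (Dkk) and 4 R-spondin genes (Rspo). All 46 were found in the table once each.

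Messenger RNA was sequenced from the neural retina and from the rest of the eye cup (retinal pigment epithelium, choroid and sclera) of 12 mice, giving 24 libraries in 8 groups of 3. PRDM13-OE mice were heterozygous for an inducible human PRDM13 cassette at Rosa26, in which the ubiquitous EF-1α promoter drives the doxycycline-dependent activator and a TRE3G promoter drives HA-tagged PRDM13, so the transgene is not limited to one cell type. Wildtype littermates without the cassette were the controls, and all mice were C57BL/6J of both sexes. In each genotype, 3 mice drank doxycycline (dox, 2 mg/ml, with 10% sucrose) for 72 hours from postnatal day 28, and 3 mice received no dox. The groups are called PRDM13-OE dox, PRDM13-OE untreated, wildtype dox and wildtype untreated. Both tissues of a mouse are separate libraries of that mouse. The sexes were not balanced over the groups, since Xist, which marks female cells, was detected in 3 of 3 PRDM13-OE dox retinas, 2 of 3 in PRDM13-OE untreated and in wildtype dox, and 1 of 3 in wildtype untreated.

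Wnt proteins are lipid-modified secreted ligands that bind frizzled receptors together with LRP5 or LRP6, which stabilises β-catenin and turns on TCF/LEF target genes, or bind frizzled receptors alone to direct planar cell polarity. SFRP, FRZB and WIF1 proteins capture Wnt ligands outside the cell, Dickkopf proteins block the LRP co-receptors, and R-spondins amplify the signal by keeping frizzled receptors at the membrane. In the retina the pathway is best known for Norrin (Ndp), a ligand unrelated to Wnt proteins that acts through FZD4, LRP5 and TSPAN12 to form and maintain the retinal vessels.

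Total counts per library ranged from 15825059 to 24908314. The mouse Prdm13 gene itself, which is distinct from the human transgene not analysed here, lay between 49.5 and 56.4 CPM in the PRDM13-OE dox retinas and between 42.0 and 51.3 CPM in the other 9, so it does not check the induction. CPM values are counts divided by the TMM-scaled library size over all 24 libraries. In the retinas, rod marker genes summed to between 53447 and 78516 CPM and retinal pigment epithelium and pigment genes to at most 437 CPM. In the eye cups the pigment genes summed to between 8976 and 53935 CPM, but rod genes still reached 3378 to 54585 CPM and surface epithelium genes (keratinised and corneal or conjunctival cells) 1062 to 31337 CPM, so these sums differed widely among the eye cups. Of the retinas, wildtype dox replicates 1 and 2 stood apart, with lens crystallin sums of 10613 and 4428 CPM against 3.33 to 836 CPM in the other 10.

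Levels of different genes were compared per length, as the deposited FPKM. In the 12 retinas 21 of the 46 genes had a mean of at least 1 FPKM, and in the 12 eye cups 32 had. Only 2 genes reached 10 FPKM in the retina, Dkk3 and Fzd5, against 11 in the eye cup. In the retina 7 genes (Wnt1, Wnt2, Wnt3a, Wnt8a, Wnt10b, Dkk1 and Dkk4) never exceeded 3 counts in any library, which at these depths limits detection and does not show absence. Dkk4 had 0 counts in all 24 libraries, and Wnt8a had 0 in all eye cups.

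**Figure D1:**
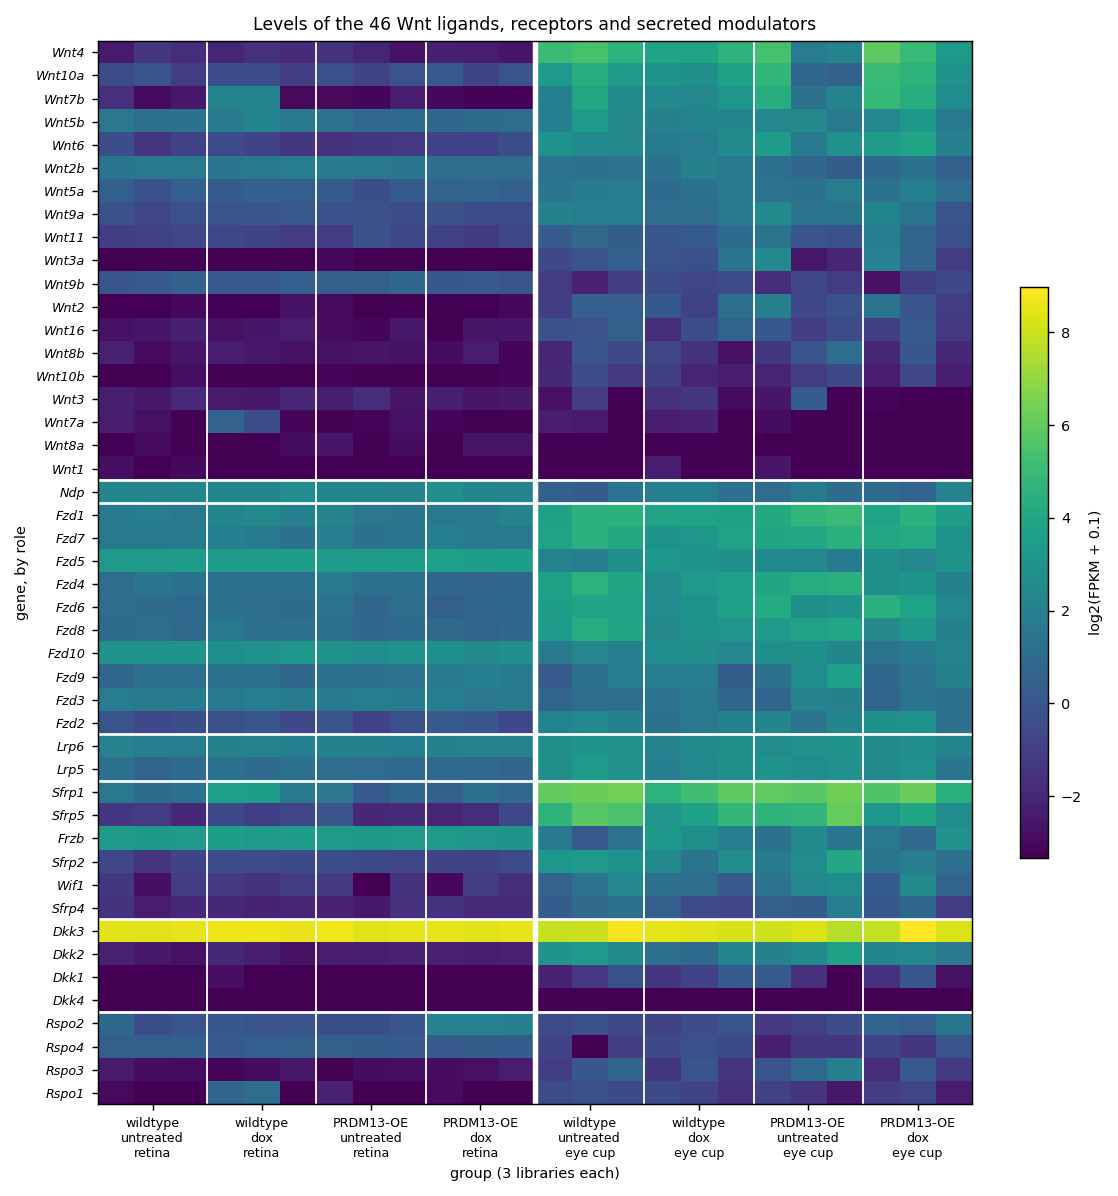
Level of each of the 46 genes (rows, by role) in each of the 24 libraries (columns, in 8 groups of 3), coloured by log2(FPKM + 0.1). Dkk3 is the brightest row in both tissues, the frizzled genes are spread over both, and most Wnt genes are brighter in the eye cup columns.

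The ligands were sparse in the retina. Of 19 Wnt genes, 4 reached a mean of 1 FPKM there and 11 did in the eye cup. Wnt2b, a ligand known from the ciliary margin and pigment epithelium, was the highest in the retina at 2.71 ± 0.488 FPKM (SD, n = 12), and Wnt5b followed at 2.50 ± 0.843 FPKM, a difference within that spread. In the eye cup Wnt4 was the highest Wnt gene, at 25.4 ± 17.1 FPKM with a range of 3.57 to 60.1, followed by Wnt10a (13.3 ± 9.82 FPKM) and Wnt7b (10.7 ± 8.76 FPKM), whose ranges overlapped. Ndp, which in the retina is made by Müller glia, averaged 4.87 ± 0.690 FPKM in the retina and 2.46 ± 1.10 FPKM in the eye cup.

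The receptors were broadly detected. Of the 10 frizzled genes, 9 in the retina and all 10 in the eye cup reached 1 FPKM. Fzd5, a receptor with roles in eye development, led in the retina (10.9 ± 0.792 FPKM, n = 12), ahead of Fzd10 (7.27 ± 0.910 FPKM), and these ranges did not overlap. Fzd1 led in the eye cup (18.9 ± 6.85 FPKM), with Fzd7 (15.1 ± 5.12 FPKM) and Fzd4 (13.0 ± 6.64 FPKM) within its SD, followed by Fzd6 (11.8 ± 5.36 FPKM) and Fzd8 (10.5 ± 4.81 FPKM), whose ranges overlapped its own. Lrp6, one of the pair of co-receptors, averaged 4.00 ± 0.268 FPKM in the retina against 1.90 ± 0.296 FPKM for Lrp5. In the eye cup Lrp5 (6.43 ± 2.04 FPKM) and Lrp6 (6.39 ± 1.20 FPKM) did not differ beyond their spread.

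Among the secreted modulators Dkk3, a divergent Dickkopf protein that is not a typical LRP blocker, dominated both tissues, at 372 ± 26.7 FPKM in the retina and 314 ± 88.5 FPKM in the eye cup. Frzb, which binds Wnt ligands, was the highest of its class in the retina (9.75 ± 1.05 FPKM). Sfrp1, another Wnt-binding antagonist, was the highest in the eye cup (56.4 ± 20.0 FPKM), ahead of Sfrp5 (26.9 ± 19.4 FPKM). R-spondins were low: Rspo2 averaged 1.71 ± 1.53 FPKM in the retina, a mean that pools groups which differ as described below, and in the eye cup Rspo3 (0.999 ± 0.990 FPKM) and Rspo2 (0.882 ± 0.652 FPKM), also pooled over the groups, did not differ beyond their spread.

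The 2 tissues of the 3 untreated wildtype mice were compared to place these genes. The tests here and in all comparisons below were edgeR quasi-likelihood tests over all genes with at least 10 counts, with p-values adjusted by the Benjamini-Hochberg method. A gene is said to have passed, and to have risen or fallen, when its adjusted p was under 0.05 and its difference more than 2-fold. Of 43 members tested, 5 passed on the retina side and 29 on the eye cup side. Of the 29, Wnt2, Wnt3a, Wnt10b, Dkk1 and Rspo1 passed the filter on low counts only through the eye cups and could only fall on that side, so nothing is read from the count against the share of all genes. Over all 21979 genes, 45.2% passed, 19.3% (4238 genes) on the retina side and 25.9% (5687) on the eye cup side. Scaling by library size alone turned that split to 5540 and 4869, and the median of all genes from -0.06 to 0.24, while 8 members then passed on the retina side and 29 on the eye cup side. The members' median log2 difference (retina minus eye cup) was -2.77, beside -0.06 for all genes tested. In bulk tissue, fewer cells of a type and less RNA per cell cannot be told apart, here or in any comparison below.

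On the retina side were Frzb (33.1 ± 2.54 against 7.07 ± 3.74 CPM, n = 3 each), Ndp (9.27 ± 0.415 against 3.09 ± 1.46 CPM), Fzd5 (71.6 ± 5.54 against 33.4 ± 10.4 CPM), the ligand gene Wnt9b (4.84 ± 0.890 against 1.26 ± 0.587 CPM) and Rspo4. Their log2 differences were 2.16 (SE 0.37, adjusted p = 0.0017) for Frzb, 1.51 (SE 0.33, adjusted p = 0.0053) for Ndp, 1.03 (SE 0.22, adjusted p = 0.0047) for Fzd5, 1.85 (SE 0.39, adjusted p = 0.0047) for Wnt9b and 2.10 (SE 0.75, adjusted p = 0.042) for Rspo4. Rspo4 lost its call without retina 1, 2 or 3 or eye cup 3, and Fzd5 lost it without retina 3 or eye cup 2. The 10 genes with the smallest p on the eye cup side were Sfrp1, Dkk2, Wnt4, Sfrp5, Fzd6, Sfrp2, Fzd8, Fzd7, Fzd2 and Wnt6. Sfrp1 had 10.7 ± 2.16 CPM in the retina and 313 ± 33.3 CPM in the eye cup (log2 -4.94, SE 0.22, adjusted p = 3.8e-06). The Dickkopf gene Dkk2 had 0.314 ± 0.139 and 27.6 ± 5.95 CPM (log2 -6.50), Wnt4 0.829 ± 0.436 and 135 ± 31.9 CPM (log2 -7.42), and Sfrp5 0.509 ± 0.180 and 76.5 ± 25.6 CPM (log2 -7.31). The other 6 had log2 differences from -4.41 (Sfrp2) to -2.56 (Fzd7). The remaining 19 that passed on the eye cup side were Wnt2, Wnt3a, Wnt5a, Wnt5b, Wnt7b, Wnt8b, Wnt9a, Wnt10a, Wnt10b, Wnt11, Wnt16, Fzd1, Fzd4, Lrp5, Wif1, Sfrp4, Dkk1, Rspo1 and Rspo3. Both tissues came from the same mice, and Wnt8b lost its call with the mouse as a block. Wnt5a, best known as a ligand of the non-canonical branch, had 8.85 ± 2.38 and 24.7 ± 3.34 CPM (log2 -1.55), and the antagonist genes Wif1 and Sfrp4 had 0.560 ± 0.401 and 7.28 ± 4.91 CPM (log2 -3.74) and 0.709 ± 0.321 and 6.89 ± 2.23 CPM (log2 -3.33). Wnt1, Wnt8a and Dkk4 were too low to be tested. By role, 13 of 14 Wnt genes that passed were on the eye cup side (all but Wnt9b), as were 6 of 7 frizzled genes (all but Fzd5) and 5 of 6 SFRP, FRZB and WIF1 genes (all but Frzb), and the 13 include Wnt2, Wnt3a and Wnt10b, which the filter let through only for their eye cup counts.

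Some ligands and modulators were near the floor in the retina, so their difference is a bound or a ratio of few counts. Wnt3a was at least 43.1-fold and Dkk1 at least 17.6-fold lower in the retina, against a floor of 3 counts over the 3 libraries. The ratio of summed counts was 108 (95% exact interval 19.1 to 4317) for Wnt2, 65.2 (11.3 to 2612) for Rspo1 and 20.8 (6.80 to 103) for Wnt10b, where intervals cover counting error only. Lrp6 (log2 -0.97), Fzd10 (0.91) and Fzd3 (0.81) had adjusted p under 0.05 without reaching 2-fold, and Rspo2 (log2 0.79, adjusted p = 0.096), Wnt2b (0.25), Dkk3 (0.19), Fzd9 (-0.22), Wnt7a (-0.25) and Wnt3 (-0.10) did not pass the test. Of the 4 pairs of neighbouring Wnt genes, Wnt6 and Wnt10a (6.19 kb apart on chromosome 1) and Wnt3a and Wnt9a (16.2 kb apart on chromosome 11) all passed on the eye cup side. Wnt9b passed on the retina side while Wnt3, 24.3 kb away, did not pass, and Wnt10b passed on the eye cup side while Wnt1, 11.7 kb away, was not tested.

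Of the 63 other pathway genes in the list (secretion, co-receptors, membrane modulators, β-catenin signalling, planar polarity and target genes), 62 were tested, 7 passed on the retina side and 26 on the eye cup side. The 7 were Apc, Apc2 and Btrc, which take part in β-catenin destruction, the polarity genes Prickle1, Prickle2 and Celsr3, and the R-spondin receptor gene Lgr5. Wls, the carrier that Wnt proteins need to leave the cell, was on the eye cup side with a log2 difference of -4.99 (SE 0.22, adjusted p = 3.9e-06).

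The comparison of dox-treated PRDM13-OE with dox-treated wildtype retinas asked what elevated PRDM13 changed. Of 39 members tested, 1 rose (Rspo2) and 4 fell (Sfrp1, Wnt7b, Wnt7a and Rspo1). Wnt7b, Wnt7a and Rspo1 passed the filter on low counts only through the wildtype dox retinas, where they were high, so nothing is read from the count of 4 against the share of all genes. Over all 20560 genes tested, 2.41% passed, 0.905% higher and 1.5% lower (186 and 309 genes), against 279 and 269 genes after scaling by library size alone. The members' median log2 difference was -0.23, beside 0.01 for all genes. In 4 members every PRDM13-OE dox retina was above every wildtype dox retina and in 12 every one was below, which 15.6% and 16.1% of all genes did. The 12 include Wnt7b and Wnt7a, whose highest PRDM13-OE dox count equalled their lowest wildtype dox count. Nothing is read from the 12 against the share of all genes either.

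Rspo2, on chromosome 15 (GRCm39 42884190 to 43034222, minus strand), encodes R-spondin 2, a secreted amplifier of Wnt signalling. Its level was 22.9, 22.9 and 21.1 CPM in the PRDM13-OE dox retinas and 4.97, 3.97 and 4.01 CPM in the wildtype dox retinas. The untreated retinas had 3.53, 3.51 and 4.55 CPM in PRDM13-OE and 8.57, 3.59 and 4.47 CPM in wildtype. Every PRDM13-OE dox retina was thus above each of the other 9, of which only wildtype untreated replicate 1 exceeded 5 CPM. The other retinas with Xist counts lay between 3.51 and 4.97 CPM. The part of sex in the values of other members was not tested. The fitted rise over wildtype dox was 5.15-fold (log2 2.37, SE 0.11, adjusted p = 1.9e-07), and over PRDM13-OE untreated 5.77-fold (log2 2.53, SE 0.13, adjusted p = 2.0e-07). The response to dox differed between the genotypes, with an interaction of 2.90 on the log2 scale (SE 0.33, adjusted p = 4.8e-05). Per length the PRDM13-OE dox retinas averaged 4.21 ± 0.201 FPKM (n = 3), against 0.739 to 1.06 FPKM in the other 3 groups. In the same retinas this was above the mean FPKM of each Wnt gene and below that of Ndp, Fzd5, Fzd10, Frzb and Dkk3.

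**Figure D2:**
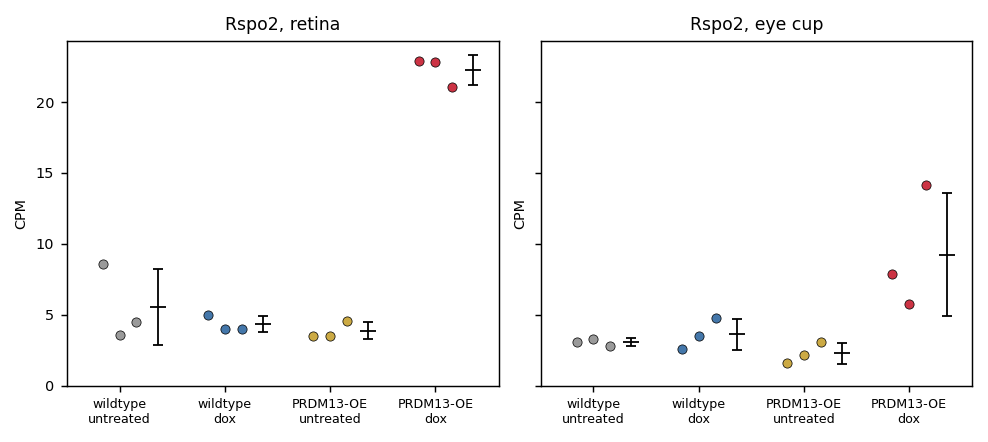
Rspo2 in every library, in CPM, by genotype and treatment, in retina and in eye cup, with points for libraries and bars for the mean ± SD of 3. The 3 PRDM13-OE dox retinas sit between 21.1 and 22.9 CPM, above the 9 other retinas, and the PRDM13-OE dox eye cups spread from 5.74 to 14.1 CPM.

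Of the other R-spondins, Rspo4 did not pass the test, Rspo3 had at most 6 counts in any retina, and Rspo1 was among the genes that fell.

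The 4 genes that fell were high in only some wildtype dox retinas. Wnt7b, a ligand of the canonical pathway, had 423, 446 and 2 counts in the wildtype dox retinas and 2, 1 and 1 in the PRDM13-OE dox retinas. Nearly all of its counts were thus in 2 libraries. Its paralog Wnt7a had 82, 43 and 1 against 1, 0 and 0 counts. Rspo1 had 55, 78 and 0 against 1, 0 and 0 counts. Sfrp1 had 993, 1023 and 228 against 107, 188 and 155 counts, or 53.6, 51.5 and 12.7 against 5.91, 9.66 and 7.81 CPM. In each of the 4, wildtype dox replicates 1 and 2 carried nearly all of the difference, and replicate 3 was close to the other groups. In the untreated retinas Sfrp1 lay between 4.55 and 13.0 CPM, Wnt7b at no more than 1.14 CPM, Wnt7a at no more than 0.319 CPM and Rspo1 at no more than 0.231 CPM.

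The fitted log2 differences were -2.33 for Sfrp1 (SE 0.42, adjusted p = 0.0034), -7.63 for Wnt7b (SE 1.47, adjusted p = 0.0054), -6.53 for Wnt7a (SE 1.41, adjusted p = 0.011) and -6.59 for Rspo1 (SE 1.47, adjusted p = 0.013). As ratios of summed counts, wildtype dox exceeded PRDM13-OE dox 209 times for Wnt7b (95% exact interval 81.2 to 767), 121 times for Wnt7a (21.3 to 4806) and 127 times for Rspo1 (22.5 to 5071). These intervals cover counting error only and not the spread between mice. Nearly all of the counts were in wildtype dox replicates 1 and 2. The same wildtype dox replicates 1 and 2 held the most lens RNA. Their lens crystallin sums were 10613 and 4428 CPM against 111 CPM in replicate 3 and 3.33 to 27.0 CPM in PRDM13-OE dox, and their sums of other lens genes were 752 and 439 CPM against 8.67 to 65.5 CPM in the other 10 retinas. All 14 lens crystallins and 8 of 10 other lens genes tested fell in this comparison. With the crystallin sum as a covariate over all retinas the log2 differences were -0.05 for Sfrp1 (SE 0.38), 0.66 for Wnt7b (SE 1.57), 0.39 for Wnt7a (SE 5.01) and 0.57 for Rspo1 (SE 3.78). None passed, and the SEs of the last 3 leave their size and sign undetermined. With both libraries left out, a check chosen after seeing the data that leaves wildtype dox as 1 library, assumed to vary like the other groups, they were -0.70, -0.63 and -1.38 for Sfrp1, Wnt7b and Wnt7a. None passed there either, and Rspo1 was no longer tested. Robust fitting gave adjusted p from 0.12 to 0.17 for the 4. Wnt7a and Rspo1 also lost their calls without any 1 of the PRDM13-OE dox retinas. Rspo2 kept a log2 rise of 2.95 with the covariate (adjusted p = 2.0e-04) and of 2.47 without both libraries (adjusted p = 9.1e-04).

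**Figure D3:**
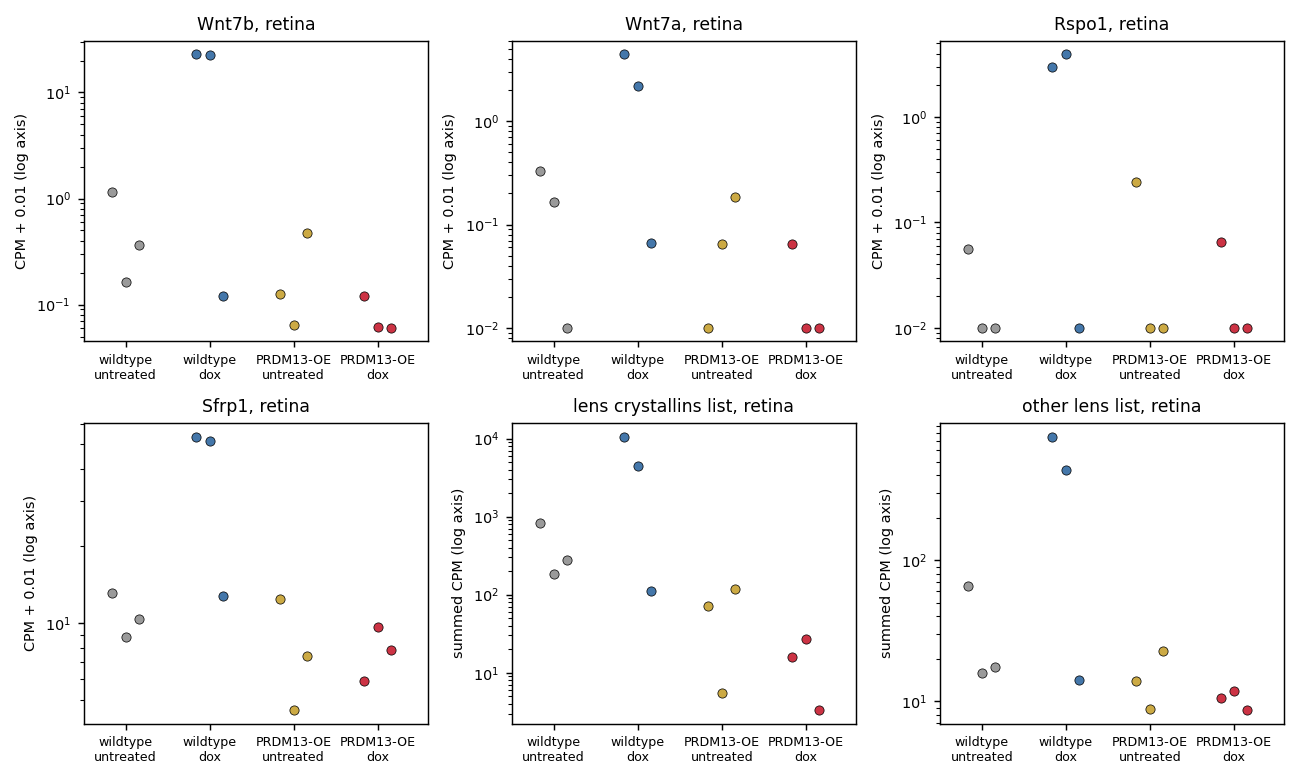
Sfrp1, Wnt7b, Wnt7a and Rspo1, with the summed lens crystallins and the summed other lens genes, in every retina by genotype and treatment. Points are libraries, in CPM on a log axis, with a small constant added for the single genes. Wildtype dox replicates 1 and 2 are far above the other 10 retinas for all 4 genes and for the crystallin sum.

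A further 6 members had adjusted p under 0.05 with less than a 2-fold difference. Of all genes tested 12.5% had an adjusted p under 0.05, a share that includes those past 2-fold, so the 6 are not set against it. Fzd9, a frizzled receptor gene, was on the higher side. Fzd4 (the Norrin receptor), Fzd8, the ligand genes Wnt2b and Wnt5b, and Dkk3 were on the lower side. Fzd9 had 8.07, 9.15 and 7.36 CPM in PRDM13-OE dox and 5.62, 4.88 and 3.90 CPM in wildtype dox (log2 0.77, SE 0.16, adjusted p = 0.0090). Fzd4 had 11.6, 10.6 and 11.4 against 16.5, 16.2 and 14.8 CPM (log2 -0.50, SE 0.09, adjusted p = 0.0046). Wnt2b had 8.84, 8.79 and 8.62 against 11.6, 12.2 and 15.1 CPM (log2 -0.57, SE 0.12, adjusted p = 0.010). In all 3 the groups did not overlap. The others were Wnt5b (log2 -0.93, adjusted p = 0.0048), Fzd8 (-0.60, adjusted p = 0.012) and Dkk3 (-0.12, adjusted p = 0.046). Dkk3 had 1284, 1195 and 1270 against 1379, 1377 and 1328 CPM, a small difference without overlap. With the crystallin covariate Fzd4 (log2 -0.42, adjusted p = 0.44), Fzd8 (log2 -0.39, adjusted p = 0.48), Wnt5b (log2 -0.51, adjusted p = 0.48) and Dkk3 (log2 -0.04, adjusted p = 0.90) were no longer under 0.05. Without wildtype dox replicates 1 and 2 they were not either, at log2 -0.40 (SE 0.20, adjusted p = 0.36), -0.51 (SE 0.19, adjusted p = 0.18), -0.62 (SE 0.24, adjusted p = 0.21) and -0.09 (SE 0.09, adjusted p = 0.67) in the same order. Wnt2b stayed under 0.05 in both (log2 -0.86, adjusted p = 0.011, and log2 -0.79, adjusted p = 0.0066), and Fzd9 did so past 2-fold (log2 1.11, adjusted p = 0.047, and log2 1.07, adjusted p = 0.024). Wnt5b overlaps Fbxl14 on the opposite strand, and since the strandedness of the counting is unclear, reads of the pair may not be separable.

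**Figure D4:**
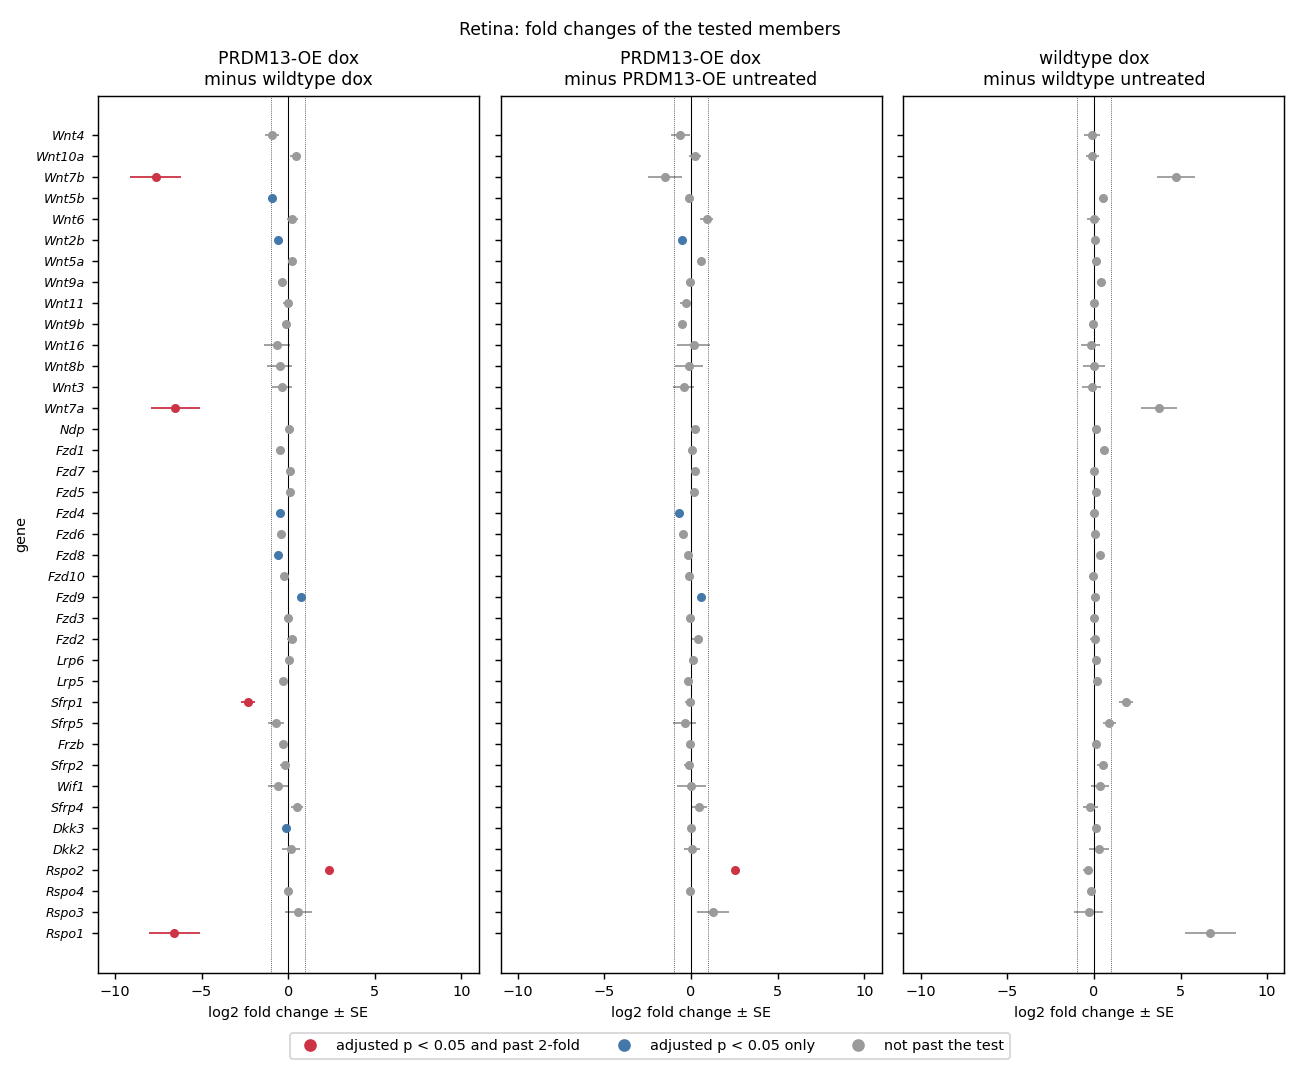
Fitted log2 fold changes ± SE of the tested members in retinas, coloured by whether the adjusted p and the 2-fold limit were passed. The panels show PRDM13-OE dox against wildtype dox, PRDM13-OE dox against PRDM13-OE untreated, and wildtype dox against wildtype untreated. Rspo2 is far to the right in both panels with PRDM13-OE dox. Wnt7b, Wnt7a, Rspo1 and Sfrp1 are far to the left against wildtype dox, and to the right with dox in wildtype. Against PRDM13-OE untreated, Wnt7b and Sfrp1 do not pass, and Wnt7a and Rspo1 were too low to be tested.

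Against PRDM13-OE untreated retinas, which carry the same cassette without dox, 1 of 37 members tested rose (Rspo2) and none fell, where 1.04% of all 20603 genes passed, 0.417% higher and 0.621% lower. Fzd4 had 21.9, 16.0 and 16.1 CPM in the untreated PRDM13-OE retinas, all above the 10.6 to 11.6 CPM with dox (log2 -0.68, SE 0.13, adjusted p = 0.0074). Wnt2b had 13.1, 12.5 and 12.0 CPM there (log2 -0.52, SE 0.11, adjusted p = 0.017). Fzd9 had 5.55, 5.31 and 5.76 CPM (log2 0.57, SE 0.15, adjusted p = 0.046). These 3 and Rspo2 were the members with an adjusted p under 0.05 here, where 5.0% of all genes had one, and the PRDM13-OE dox retinas are those of the comparison with wildtype dox. Sfrp1 (log2 -0.05), Wnt7b (-1.49), Wnt5b, Fzd8 and Dkk3 did not pass against PRDM13-OE untreated, and Rspo1 and Wnt7a were too low to be tested. The members' median log2 difference was -0.05, beside 0.00 for all genes.

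Marker genes of several cell types differed between the same groups. Endothelial genes, whose cells express Fzd4, summed to 221 to 251 CPM in PRDM13-OE dox retinas, against 411 to 437 CPM in wildtype dox and 346 to 417 CPM in the untreated retinas, and 1 of 10 of them fell. Rod genes summed to 53447 to 59877 CPM against 71988 to 74312 CPM in wildtype dox, and cone genes to 696 to 762 against 1178 to 1224 CPM. Horizontal cell genes summed to 173 to 180 against 251 to 289 CPM, amacrine genes to 918 to 941 against 1014 to 1083 CPM, and bipolar genes to 951 to 1069 against 1127 to 1233 CPM. Pigment epithelium and pigment genes summed to 172 to 181 against 228 to 261 CPM, ciliary and iris epithelium genes to 46.4 to 101 against 124 to 147 CPM, and fibroblast genes to 34.4 to 118 against 152 to 210 CPM. In these 3 lists the untreated retinas overlapped PRDM13-OE dox. Pericyte genes summed to 98.1 to 114 against 120 to 141 CPM, with overlap in the untreated wildtype retinas, and Schwann cell genes to 40.7 to 47.8 against 63.1 to 81.4 CPM. The sums of ganglion cell, Müller glia and microglia genes overlapped. Blood genes summed to 0.663 to 1.11 CPM against 29.3 to 72.9 CPM. The part of these differences in the values of Fzd4, Wnt2b, Fzd9 or Rspo2 was not tested.

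The promoters of these genes are shown because they are the members with an adjusted p under 0.05 against PRDM13-OE untreated retinas. RefSeq gave a promoter (250 bases before to 50 after the start, GRCm39) for Wnt2b (chr3:104868976-104869275, minus strand), Fzd9 (chr5:135279852-135280151, minus strand) and Fzd4 (chr7:89053324-89053623, plus strand), and each matched the genome at 1 place. Rspo2 was not matched in that table. Capitals mark CCAAT and GGGCGG, the latter bound by SP factors, on either strand, where neighbouring matches may join or overlap.
Wnt2b: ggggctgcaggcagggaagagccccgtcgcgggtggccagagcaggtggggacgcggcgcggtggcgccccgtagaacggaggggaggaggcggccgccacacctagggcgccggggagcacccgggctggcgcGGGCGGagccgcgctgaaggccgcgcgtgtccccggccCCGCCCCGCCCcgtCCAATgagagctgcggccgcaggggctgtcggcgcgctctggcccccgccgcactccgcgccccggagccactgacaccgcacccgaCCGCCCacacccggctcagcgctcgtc
Fzd9: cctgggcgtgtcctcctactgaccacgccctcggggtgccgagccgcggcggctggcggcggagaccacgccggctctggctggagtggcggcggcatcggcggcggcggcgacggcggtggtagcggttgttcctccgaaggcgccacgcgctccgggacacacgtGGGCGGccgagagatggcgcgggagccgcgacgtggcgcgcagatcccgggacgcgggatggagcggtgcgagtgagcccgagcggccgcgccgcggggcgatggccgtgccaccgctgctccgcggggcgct
Fzd4: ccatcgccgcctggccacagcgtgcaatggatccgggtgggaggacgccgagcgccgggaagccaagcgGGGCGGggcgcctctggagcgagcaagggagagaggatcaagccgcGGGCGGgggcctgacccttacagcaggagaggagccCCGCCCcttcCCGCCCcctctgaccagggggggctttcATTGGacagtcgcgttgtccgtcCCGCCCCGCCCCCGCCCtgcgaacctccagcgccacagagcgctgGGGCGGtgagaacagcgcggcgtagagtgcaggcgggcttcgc
Wnt2b held 1 CCAAT and 4 GGGCGG, Fzd9 held 0 and 1, and Fzd4 held 1 and 8. Of all 27025 promoters of this length 37.9% held CCAAT and 35.9% held GGGCGG, and of the 30 member promoters 11 and 22 did. The GC content was 79.7% for Wnt2b, 78.0% for Fzd9 and 72.7% for Fzd4, beside a median of 52.7% for all promoters. The E-box CAGCTG and the TCF/LEF motif CTTTGAT, also searched on both strands, were in none of the 3 windows, in 4 and 1 of the 30 member promoters, and in 16.1% and 3.72% of all promoters. A match is a description of the sequence, and these windows are short.

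Of the genes best known for retinal vessels (Ndp, Fzd4, Lrp5 and Tspan12), none passed against wildtype dox. Fzd4 alone had an adjusted p under 0.05, without reaching 2-fold. Ndp had 13.1, 9.30 and 8.67 CPM in PRDM13-OE dox and 9.40, 9.41 and 11.6 CPM in wildtype dox retinas (log2 0.03, adjusted p = 0.94). Lrp5 had 18.2, 17.6 and 15.4 against 22.7, 18.3 and 22.3 CPM. Lrp6 had 55.9, 59.5 and 59.9 against 55.7, 61.9 and 53.1 CPM. The groups overlapped for Ndp and Lrp6 but not for Lrp5. Fzd5 had 86.7, 84.6 and 82.1 against 75.8, 77.8 and 79.7 CPM, a separation that did not pass the test. Frzb had 33.3, 27.8 and 26.9 against 38.4, 32.5 and 35.3 CPM (log2 -0.27, adjusted p = 0.075), and Fzd1 had 12.4, 13.9 and 19.1 against 20.7, 24.7 and 17.6 CPM (log2 -0.47, adjusted p = 0.068).

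Of the 63 other pathway genes, 61 were tested against wildtype dox, where 3 fell and none rose. They were Ccnd1, a cell cycle gene and β-catenin target (log2 -1.01, SE 0.09, adjusted p = 1.8e-05), Wls (log2 -1.12, SE 0.19, adjusted p = 0.0021) and the polarity gene Celsr1 (log2 -1.41, SE 0.41, adjusted p = 0.046). Ccnd1 had 15.4, 13.6 and 15.8 CPM against 29.3, 32.8 and 28.1 CPM. Wls had 6.52, 8.99 and 8.77 against 16.9, 22.7 and 13.1 CPM, and Celsr1 0.773, 1.03 and 1.11 against 2.97, 3.77 and 1.00 CPM. With the crystallin covariate the log2 differences of Wls and Celsr1 were -0.24 (SE 0.40) and 0.16 (SE 0.62), and without wildtype dox replicates 1 and 2 they were -0.69 (SE 0.37) and -0.04 (SE 0.50), none of which passed. Wls lost its call without PRDM13-OE dox replicate 1 or wildtype dox replicate 2, and Celsr1 lost it without each library except wildtype dox replicate 3. Ccnd1 kept -0.90 with the covariate and -0.92 without both libraries, which is under 2-fold. At an adjusted p alone, 9 of the 61 were on the lower side and none on the higher, beside 7.51% and 5.01% of all genes.

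Of those 9, Adgra2 and Nkd1, named here after their values were seen, differed in each of the comparisons with dox-treated PRDM13-OE retinas. Adgra2 (GPR124), a co-activator of WNT7 signalling in brain vessels, had 28.7, 27.2 and 29.8 CPM in PRDM13-OE dox against 51.3, 52.4 and 56.5 CPM in wildtype dox and 51.1, 49.7 and 51.3 CPM in PRDM13-OE untreated retinas. Its log2 difference was -0.90 against wildtype dox (SE 0.07, adjusted p = 4.9e-06) and -0.83 against PRDM13-OE untreated (SE 0.07, adjusted p = 1.4e-05). Nkd1, a target and feedback inhibitor of the pathway, had 18.1, 15.9 and 16.1 CPM against 32.2, 27.8 and 33.1 CPM in wildtype dox and 30.9, 33.3 and 30.4 CPM in PRDM13-OE untreated. Its log2 differences were -0.90 (SE 0.09, adjusted p = 5.0e-05) and -0.92 (SE 0.09, adjusted p = 3.1e-05). Every PRDM13-OE dox retina was below every other retina compared, without reaching 2-fold, and the interactions were -0.95 for Adgra2 (adjusted p = 1.5e-05) and -0.93 for Nkd1 (adjusted p = 2.4e-04). Axin2, the most used target gene of β-catenin, had 36.6, 35.5 and 29.9 against 25.7, 30.2 and 31.0 CPM in wildtype dox (log2 0.23, adjusted p = 0.14). Tspan12, the Norrin co-receptor, did not pass either (log2 -0.09, adjusted p = 0.58).

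The interaction between genotype and dox in the retina was tested for 39 members, where 0.87% of 22538 genes passed. It passed for 80 genes on the higher side and 116 on the lower, and for 101 and 99 after scaling by library size. Among the members it passed for Rspo2 and for no other. Wnt2b (log2 -0.59, adjusted p = 0.063) and Fzd4 (log2 -0.66, adjusted p = 0.074) were next.

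In the remaining retina comparisons no member passed the test. Dox in wildtype retinas, the background of the treatment itself, had 0 of 39 members called by edgeR and 0 by DESeq2, with 0.00485% of all 20631 genes called by edgeR. At an unadjusted p under 0.05, 9 members were on the higher side and 0 on the lower with dox in edgeR (9.32% of all genes were under that p in either direction), among them Sfrp1 (log2 1.87, adjusted p = 0.21), Rspo1, Wnt7b and Wnt7a. Those 4 are the genes that were high in wildtype dox replicates 1 and 2, and all 4 passed when replicate 3 was left out. Fzd1, Dkk3, Wnt5b, Fzd8 and Sfrp5 made up the rest of the 9. Rspo1 passed the filter on low counts only through the wildtype dox retinas and could only rise, so nothing is read from the 9 against the share of all genes. The cassette without dox (PRDM13-OE untreated against wildtype untreated) had 0 of 38 members called by either tool and 0 at an unadjusted p under 0.05 (3.76% of all genes), with 0.0% of all 20668 genes called by edgeR.

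In the eye cup no member passed the test in edgeR in any comparison of genotype or dox, and few genes did at all. Of all genes tested, 0.0184% passed for PRDM13-OE dox against wildtype dox, 0.0139% for PRDM13-OE dox against PRDM13-OE untreated, and 0.0% for wildtype dox against wildtype untreated, for PRDM13-OE untreated against wildtype untreated and for the interaction. At an unadjusted p under 0.05 there were 4 members on the higher and 3 on the lower side of 43 for PRDM13-OE dox against wildtype dox (8.24% of all genes), 1 and 7 of 42 for PRDM13-OE dox against PRDM13-OE untreated (4.14%), 5 and 12 of 43 for wildtype dox against wildtype untreated (29.9%), 0 and 0 of 43 for the untreated genotypes (1.87%), and 1 and 2 of 43 for the interaction (6.4%). DESeq2 called Frzb higher and Fzd8, Sfrp5 and Dkk2 lower in wildtype eye cups with dox, where it called 1381 genes higher and 598 lower of 21789. It called Fzd4 lower in PRDM13-OE dox against PRDM13-OE untreated (9 genes higher and 45 lower of 21550), and no member in the other 3. Of 200 genes simulated with a log2 change of 2 between PRDM13-OE dox and wildtype dox eye cups (21169 genes), edgeR recovered 121. The 200 were drawn only from genes with more counts than the filter required, so members with few counts are not covered.

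Rspo2 values in the PRDM13-OE dox eye cups lay above those of the other 9, at 7.86, 5.74 and 14.1 CPM, against 2.58, 3.50 and 4.78 CPM in wildtype dox, 1.62, 2.15 and 3.06 CPM in PRDM13-OE untreated and 3.09, 3.32 and 2.82 CPM in wildtype untreated. The groups did not overlap, which held in that direction for 5.24% of all genes against wildtype dox and 3.6% against PRDM13-OE untreated, but the log2 differences of 1.44 (SE 0.41, adjusted p = 0.60) and 2.01 (SE 0.50, adjusted p = 0.97) did not pass the test. Rod genes, which mark retinal RNA, summed to 3378 to 54585 CPM in the eye cups. With their sum as a covariate over all eye cups the Rspo2 differences were 1.43 (SE 0.42, adjusted p = 0.60) and 2.02 (SE 0.41, adjusted p = 0.10). The genotype difference in Rspo2 between retina and eye cup of dox mice was 0.91 on the log2 scale (SE 0.42, adjusted p = 0.70).

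In PRDM13-OE eye cups Fzd4 had 44.1, 51.7 and 28 CPM with dox against 101, 131 and 138 CPM without. These groups did not overlap, which held in that direction for 5.79% of all genes. The log2 difference of -1.58 (SE 0.30) had an adjusted p of 0.97 in edgeR and 0.0094 in DESeq2 (log2 -1.59), and 0.020 in edgeR with the rod sum as a covariate. In wildtype eye cups Fzd4 also had lower values with dox, 42.3, 70.2 and 87.4 against 85.8, 158 and 98.6 CPM, which overlap, and the interaction was -0.69 (SE 0.48, adjusted p = 0.77). With the rod covariate the wildtype difference was -0.16 (SE 0.24, adjusted p = 0.96) and the interaction -1.41 (SE 0.31, adjusted p = 0.73), and neither passed. Pigment genes summed to 8976 to 24721 CPM in the 6 eye cups with dox and to 25269 to 53935 CPM in the 6 without. In PRDM13-OE eye cups 3 other lists were also lower with dox without overlap. Blood genes summed to 12.9 to 15.9 against 611 to 1164 CPM. Schwann cell genes summed to 254 to 1158 against 1687 to 7094 CPM, and microglia genes to 139 to 270 against 294 to 441 CPM. Endothelial genes overlapped, at 270 to 707 against 391 to 879 CPM, as did the remaining lists. The part of these differences in the Fzd4 values was not tested.

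The remaining receptors and modulators of the eye cup did not pass either. In wildtype, Sfrp1 had 114, 172 and 275 CPM with dox against 282, 309 and 348 CPM without, Frzb 32.2, 23.7 and 12.6 against 10.3, 3.00 and 7.87 CPM, and Fzd8 33.8, 48.1 and 55.6 against 63.9, 110 and 90.1 CPM. Their adjusted p were 0.12, 0.089 and 0.072. Rod genes summed to 29930 to 54585 CPM in these eye cups with dox against 3378 to 28552 CPM without. With the rod sum as a covariate the log2 difference was -0.22 for Sfrp1 (SE 0.32, adjusted p = 0.96), 0.48 for Frzb (SE 0.35, adjusted p = 0.90) and -0.34 for Fzd8 (SE 0.23, adjusted p = 0.90). For Sfrp5 and Dkk2, which DESeq2 had also called lower, it was -0.32 (SE 0.38) and -0.72 (SE 0.42), and neither passed. In PRDM13-OE, Sfrp5 had 17.1, 27.7 and 12.1 CPM with dox against 47.5, 51.3 and 117 CPM without (log2 -1.95, adjusted p = 0.97). Rspo3 had 0.620, 2.99 and 1.03 against 2.49, 5.38 and 10.5 CPM, with overlap.

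The highest member of each role in the eye cup overlapped between the genotypes with dox. Fzd1 had 57.9, 93.2 and 52.1 CPM in PRDM13-OE dox, 60.8, 62.6 and 56.2 CPM in wildtype dox, 74.8, 113 and 126 CPM in PRDM13-OE untreated and 55.3, 93.3 and 99.3 CPM in wildtype untreated. Lrp5 had 54.2, 68.3 and 27.5 CPM in PRDM13-OE dox and 38.2, 53.6 and 71.7 CPM in wildtype dox. Sfrp1 had 206, 296 and 102 CPM in PRDM13-OE dox, and in this comparison its log2 difference was 0.21 (adjusted p = 0.88). In these 3 genes the lowest PRDM13-OE dox value was that of replicate 3. Dkk3 had 808, 1618 and 1095 CPM against 1308, 1224 and 1075 CPM in wildtype dox. Ndp had 3.41, 2.64 and 8.64 against 8.04, 7.87 and 4.51 CPM, and Rspo3 in wildtype dox had 0.960, 2.80 and 0.929 CPM. Fzd5 and Lrp6 also overlapped.

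Several Wnt ligands of the eye cup varied widely between libraries of the same group. Wnt4, a ligand that acts in many epithelia, had 252, 131 and 45.4 CPM in PRDM13-OE dox, 174, 15.1 and 17.2 CPM in PRDM13-OE untreated, 64.4, 64.8 and 111 CPM in wildtype dox, and 138, 165 and 101 CPM in wildtype untreated. Surface epithelium genes in the same order of libraries summed to 31337, 16080 and 5787 CPM, to 20787, 1251 and 1062 CPM, to 6030, 6698 and 12690 CPM, and to 13333, 12940 and 11734 CPM. The libraries lowest in these genes, PRDM13-OE untreated replicates 2 and 3, were also the lowest in Wnt4, and PRDM13-OE dox replicate 1 was the highest in both. Wnt7b ranged from 11.5 to 148 CPM, Wnt10a from 2.93 to 75.6 CPM and Wnt6 from 6.86 to 29.9 CPM, with PRDM13-OE dox replicate 1 highest for Wnt7b and Wnt10a and replicate 2 for Wnt6. The part of the epithelial genes in these ligands was not tested.

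**Figure D5:**
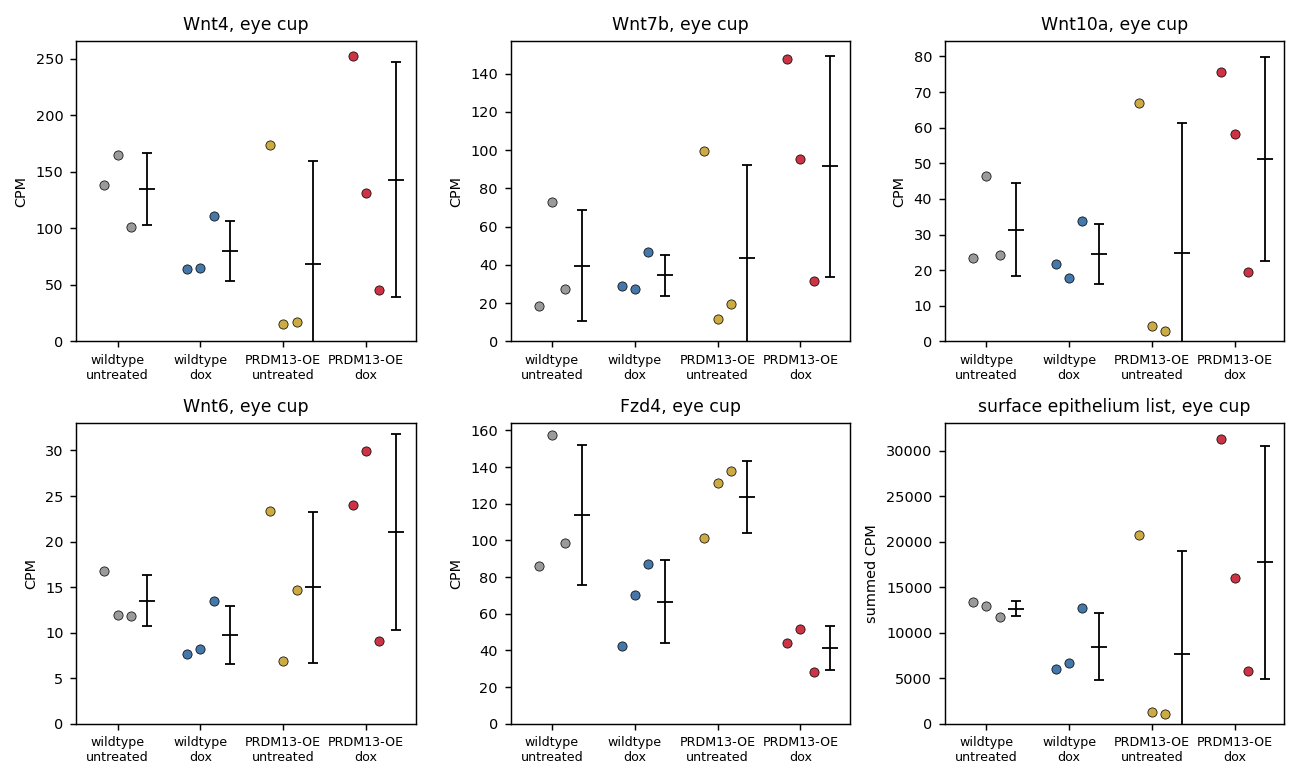
Wnt4, Wnt7b, Wnt10a, Wnt6 and Fzd4, with the summed surface epithelium genes, in every eye cup by genotype and treatment, in CPM, as points with the group mean ± SD of 3. Wnt4 runs from 15.1 to 252 CPM and is highest in the library with the highest epithelial sum, while Fzd4 has no overlap between PRDM13-OE dox and PRDM13-OE untreated.

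Without PRDM13-OE dox eye cup 3, the library of that group lowest in surface epithelium genes, Wnt4, Wnt7b, Wnt10a, Wnt6 and Fzd2 were higher and Fzd10 lower than in wildtype dox, as 548 genes were higher and 1219 lower over all. That library was also the highest of its group in rod genes (41623 CPM against 14598 and 6238 CPM), and without it the rod sums of PRDM13-OE dox lay below the 29930 to 54585 CPM of wildtype dox. Without PRDM13-OE untreated eye cup 1, the library of that group highest in surface epithelium genes, Wnt4 and Wnt10a were lower than in wildtype untreated, as 8 genes were higher and 290 lower over all. Without wildtype dox eye cup 3, Sfrp1, Wnt4, Sfrp5 and Dkk2 were lower with dox in wildtype eye cups (359 genes higher and 571 lower over all), and without wildtype untreated eye cup 1, Fzd8 was (1536 and 455). Each of these calls thus rests on the choice of libraries. Ligands with few counts gave only bounds or wide intervals. Wnt7a had 0 counts in the PRDM13-OE dox eye cups and 13 in wildtype dox, at least 3.95-fold lower, and Wnt3 had 1 count against 31 (ratio 28.3, 95% exact interval 4.71 to 1152). The interval covers counting error only and not the spread between mice.

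The difference between genotypes with dox was compared between the tissues in 1 fit. No member of 43 passed in edgeR, as no gene of all 23678 did (0.0%). DESeq2 called Wnt7b lower, where it called 3 genes higher and 26 lower of 23655. The retina counts of Wnt7b were nearly all in wildtype dox replicates 1 and 2. At an unadjusted p under 0.05 there was 1 member on the higher and 5 on the lower side (7.17% of all genes). Without PRDM13-OE dox eye cup 3, Rspo2 was higher in this contrast and Sfrp1, Wnt4, Fzd6, Wnt7b, Wnt5b and Rspo1 lower, as 1674 genes were higher and 463 lower of 23401 tested. Without wildtype dox retina 3, Wnt7b was lower, as 1 of 3 genes lower over all.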

How the data were processed

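Polyadenylated RNA was sequenced from 24 libraries, the neural retina and eye cup of 12 mice, 3 libraries a group. The authors deposited 1 table with read counts per gene, not normalized, and FPKM per gene, normalized by the authors to library size and gene length, for each library. The submitters' processing notes name GRCm39, CASAVA and HISAT2, and the counting tool, the annotation release and the strand setting are not given in the sources used here. Another 60 columns hold the authors' own 12 comparisons (group means, fold changes and p-values) and were not used. Groups came from the titles and characteristics of the samples.

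Counts were tested with edgeR 4.0.16 (quasi-likelihood, TMM scaling, robust fitting off, genes whose counts in the libraries compared total 10 or more) in R 4.3.3. The p-values were adjusted by the Benjamini-Hochberg method over all genes tested, and the cutoffs were an adjusted p of 0.05 and a 2-fold change. DESeq2 1.42.0 was an alternative, and so were library size scaling, other filters, robust fitting, the replicate number as a block, marker sums as covariates and each library left out. CPM were computed with TMM over all 24 libraries and FPKM were used as deposited. Sequences are from RefSeq, read on GRCm39. Total counts were 15825059 to 24908314 per library. No libraries of a group were copies of each other (chi-square per degree of freedom 3.60 to 317 over 24 pairs). The mice are separate animals, and same numbers within a tissue are different mice. Retina and eye cup are paired by mouse through the mouse number in the sample titles. In untreated wildtype mice they deviated together only weakly (correlations 0.102, 0.127 and 0.103), which does not by itself show the pairing. The main tissue test did not use the pairing.

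On simulated counts with 200 genes changed by 2 on the log2 scale, edgeR recovered 194 with 12 false calls among 20172 genes tested for PRDM13-OE dox against wildtype dox retinas, and 121 with 7 among 21169 for the eye cups. DESeq2 recovered 193 with 5 and 174 with 55. The changed genes were drawn only from genes with more counts than the filter required.

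The members, the pathway and marker lists and the tests were chosen with earlier results of these data known. Every member is accounted for. Library values are given for members that passed in a comparison of genotype or dox, and, in the dox groups at least, for the highest member of each role in each tissue, and tissue differences are given for the 10 smallest p in each direction. Other members named with values are those with an adjusted p under 0.05, those that a left-out library or another tool called, or ones chosen after their values were seen.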

Additional observations from a re-analysis of the deposited data

Results flagged for a closer look

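Rspo2 was singled out because its response to dox differed between the genotypes in the retina, by the interaction term of 1 edgeR fit over all 12 retinas. The interaction was 2.90 on the log2 scale (SE 0.33, adjusted p = 4.8e-05 over 22538 genes). With dox, the PRDM13-OE retinas had 22.9, 22.9 and 21.1 CPM and the wildtype retinas 4.97, 3.97 and 4.01 CPM, and without dox the PRDM13-OE retinas had 3.53, 3.51 and 4.55 CPM and the wildtype retinas 8.57, 3.59 and 4.47 CPM. It passed in each of the 12 fits with 1 retina left out, with log2 values from 2.44 to 3.13, and in each of 8 other settings, with values from 2.87 to 3.21. No other of the 39 members tested passed.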

How the results depend on the processing

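For PRDM13-OE dox against wildtype dox retinas, members that rose went from 1 to 2 without the fold cutoff, with the lens crystallin covariate, and with the 2 high-crystallin wildtype dox retinas left out (chosen after seeing the data), with Fzd9 as the gene added in each. Those that fell went from 4 to 9 without the fold cutoff, 3 with DESeq2 (Rspo1 lost), 1 with filterByExpr, and 0 with robust fitting, with the crystallin covariate and with both libraries left out. Under that covariate Wnt7b (log2 0.66), Rspo1 (0.57) and Wnt7a (0.39) changed sign, with SEs of 1.57, 3.78 and 5.01. For wildtype dox against wildtype untreated retinas, 4 rather than 0 rose without a filter. For PRDM13-OE dox against PRDM13-OE untreated retinas, 2 rose and 2 fell without the fold cutoff. In the retina interaction 1 rather than 0 was lower with DESeq2 and 4 without a filter. In eye cups, DESeq2 gave 1 higher and 3 lower members for wildtype dox against untreated (2 lower without a filter), and 1 lower for PRDM13-OE dox against untreated, as did the rod covariate. Between the tissues, library size scaling gave 8 rather than 5 on the retina side, and DESeq2 gave 1 lower for genotype by tissue. Leaving out 1 library gave these ranges. For PRDM13-OE dox against wildtype dox retinas 1 to 1 rose and 2 to 5 fell, 2 without PRDM13-OE dox 1 or 2 (Sfrp1 and Wnt7b), and Wnt5b was added without PRDM13-OE dox 3 or wildtype dox 3. With dox in wildtype retinas 0 to 4 rose. In the retina interaction 0 to 3 were lower, Sfrp1, Wnt7b and Rspo1 without wildtype dox 3 and Sfrp1 without PRDM13-OE untreated 2. In eye cups 0 to 5 were higher and 0 to 1 lower for PRDM13-OE dox against wildtype dox, 0 to 4 lower with dox in wildtype, and 0 to 2 lower for the untreated genotypes. Between the tissues 3 to 5 were on the retina side and 28 to 30 on the eye cup side, and for genotype by tissue 0 to 1 were higher and 0 to 6 lower.

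With the replicate number as a block, 2 rather than 0 members rose with dox in wildtype retinas and 1 rather than 0 was lower in the retina interaction (Rspo1), but the numbers do not pair mice within a tissue. With the mouse as a block, Wnt8b alone lost its call between the tissues, which gave 5 and 28. With all 12 mice and that block the counts were 4 and 29, with Fzd5 lost, and Fzd5 also lost its call with filterByExpr, as did Dkk1 and Wnt8b. The members with an adjusted p under 0.05 in the main fit of a comparison, 53 values, were followed over all settings. Of their values there, 718 kept direction and side of the threshold, 21 passed only under the setting, 26 no longer passed, and 3 changed sign. Members over that limit and other pathway genes are not in these counts. Scaling by library size alone moved the median of all genes by over 0.1 in the tissue comparison, for dox in either genotype of eye cup and for genotype by tissue, and with dox in wildtype eye cups it called 658 genes higher and 98 lower, none of them members. Over all genes in the eye cup, edgeR called 1 higher and 3 lower and DESeq2 51 and 49 for PRDM13-OE dox against wildtype dox. With dox in wildtype they called 0 and 0 against 1381 and 598, with dox in PRDM13-OE 0 and 3 against 9 and 45, for the untreated genotypes 0 and 0 against 2 and 1, and for the interaction 0 and 0 against 9 and 13. The cause was not tested.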
